A study of Octopus bimaculoides with 16 samples.

Results

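In Octopus bimaculoides, a Pacific octopus, 123 genes were found at clear levels in every tissue sampled except the optic lobe of the brain. The genes were chosen from the levels described here: each had at least 10 CPM (the reads of a gene for every 1000000 reads of its library) in eye, olfactory organ, mantle skin, statocyst, dissociated sucker rim cells and whole sucker cup, and under 1 CPM in optic lobe. They make up 123 of the 15842 genes of the table, or 0.776%, and 123 of the 5708 genes that passed the side of the rule on the 6 other tissues, or 2.15%. The word missing stands below for a level under 1 CPM, which can still be a few reads. Since every library entered the rule, the levels are a description and no significance test was made on them.

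The study sampled sensory organs and control tissues, and the labels do not mark which tissue was a control. Optic lobe, eye, olfactory organ, mantle skin and statocyst each had 1 library, and so did cells dissociated from sucker rims, whose title names 8 suckers. The whole sucker cup from arm R1 had 2 libraries, automated and manual, and its level is the mean of both. Neither the animals' genotype, treatment, age and number nor the meaning of automated and manual was stated in the labels, so the spread between those libraries may be technical. Depth was lowest in mantle skin (4782744 reads) and optic lobe (5373482 reads) and highest in rim cells (36916825 reads).

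The optic lobe is the large visual centre behind each eye of a cephalopod, where axons of the photoreceptors end on layers of neurons. Eye, statocyst (the balance organ), olfactory organ, skin and suckers hold sensory neurons too, but also epithelia, muscle and connective tissue, and skin carries the pigment organs called chromatophores. In bulk tissue, fewer cells of a type and less RNA per cell cannot be told apart. The table gives only identifiers of the form LOC, and the reference table used here pairs none of the 123 with a functional name, so no role is stated for any of them and tissue labels could not be checked against marker genes. CPM is not divided by transcript length, so levels are comparable between tissues for the same gene. Levels of different sets of genes, where set side by side below, carry that limit.

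Optic lobe reads of the 123 genes were few. No read was found for 46 of them, 1 read for 16, 2 reads for 19, 3 reads for 12, 4 reads for 12 and 5 reads for 18. A single read was worth 0.186 CPM in optic lobe, and a count of 0 allows up to 0.558 CPM at a floor of 3 reads, or 0.686 CPM as the exact 95% Poisson limit. A gene at 10 CPM would be expected to give 53.7 reads at this depth. All 123 together held 228 reads of optic lobe, 0.00424% of the library (95% Wilson interval 0.00373 to 0.00483%). Their share was 1.597% in eye, 1.87% in olfactory organ, 2.05% in mantle skin, 2.63% in statocyst, 2.72% in rim cells, and 1.96% and 2.01% in the automated and manual whole sucker libraries. The optic lobe share is thus low by the choice of genes, while the shares of the other 7 libraries all lay between 1.597 and 2.72%. Intervals cover counting error only.

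The genes lay in the lower tail of the optic lobe levels. Of the 5708 genes at 10 CPM or more in the 6 other tissues, 4864 (85.2%) also reached 10 CPM in optic lobe, 457 lay between 5 and 10 CPM, 201 between 2 and 5 CPM, 63 between 1 and 2 CPM and 123 under 1 CPM. On the log2(CPM + 1) scale, the lowest bin of the plot, which holds genes with 0 to 2 optic lobe reads, had 81 genes, the next bin 42, and the bins above it 53, 76 and 122. These bins cover unequal numbers of possible read counts, so their heights are not comparable as such. By single read counts, 11 genes had 6 reads, 13 had 7, 12 had 8, 17 had 9 and 10 had 10, beside the 12 to 19 genes at each count from 1 to 5 reads. Apart from the 46 genes at 0 reads, the numbers were thus similar on both sides of the threshold of 1 CPM.

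**Figure D1:**
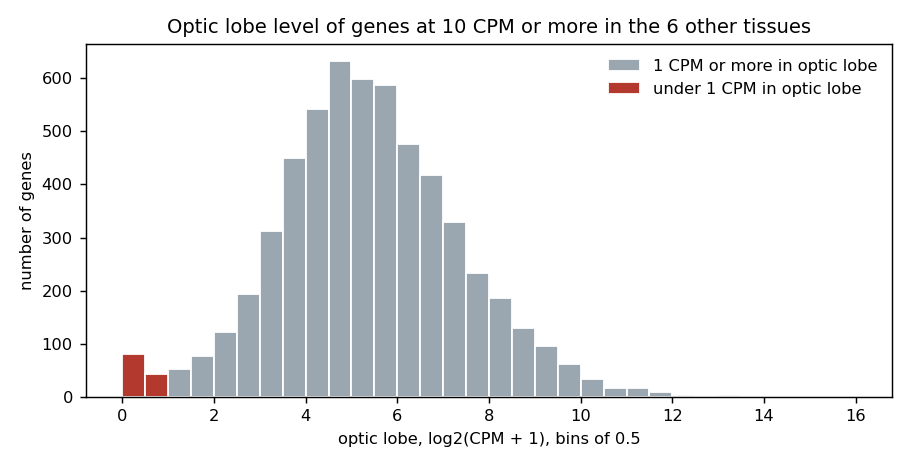
Number of genes (vertical axis) by optic lobe level in log2(CPM + 1), in bins of 0.5 (horizontal axis), for the 5708 genes at 10 CPM or more in the 6 other tissues. The 123 genes under 1 CPM (red) fill the 2 lowest bins with 81 and 42 genes, beside 53 in the next bin (grey), and the lowest bins cover unequal numbers of read counts.

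Turned to each tissue in its place, the same rule gave fewer genes. Statocyst was missing 14 genes that the other 6 tissues had at 10 CPM or more (0.274% of 5109), rim cells were missing 2 (0.0407% of 4920), and eye, olfactory organ, mantle skin and whole sucker cup were missing 0. The contrast with statocyst depended on scaling, since median-of-ratios size factors gave 81 genes for optic lobe and 24 for statocyst. Mantle skin is a shallower library than optic lobe, and its lowest level among 4904 such genes was 1.05 CPM. The lowest level was 5.31 CPM in eye, 3.65 CPM in olfactory organ and 6.25 CPM in whole sucker cup. Levels under 10 CPM, counted without size factors, showed the same order. They were found for 844 genes in optic lobe, 245 in statocyst and 56 in rim cells. The other tissues had 50 (whole sucker cup), 40 (mantle skin), 39 (olfactory organ) and 27 (eye). Size factors raise optic lobe levels and lower those of statocyst, and these counts were not repeated with them. Rim cells and whole sucker cup both came from suckers, so their counts are not independent, and the part of this in the counts was not tested. With 1 library for each tissue but whole sucker cup, these differences have no replicate check.

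**Figure D2:**
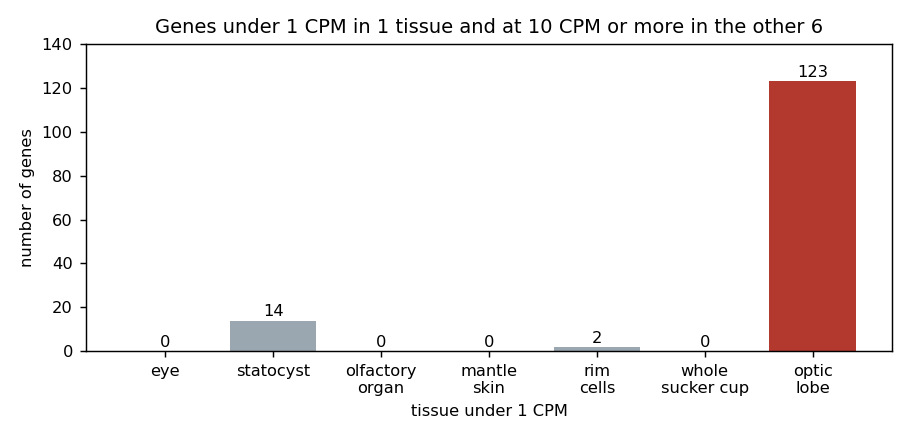
Number of genes (vertical axis) under 1 CPM in the tissue named on the horizontal axis and at 10 CPM or more in the other 6 tissues. Optic lobe has 123, statocyst 14 and rim cells 2, and the other 4 tissues have 0.

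Similarity between tissues was described over genes present in all of them, and its part in these counts was not tested. Across the 4864 genes at 10 CPM or more in all 7 tissues, log2(CPM + 1) of whole sucker cup correlated with mantle skin at a Pearson's r of 0.976 and with rim cells at 0.928, and that of olfactory organ with mantle skin at 0.908. Optic lobe was closest to eye (r = 0.748) and least close to statocyst (r = 0.537). Eye had its highest values at 0.784 with whole sucker cup and 0.77 with statocyst, below the highest value of each of the 4 surface tissues. The points are genes measured in the same 8 libraries, so these values are descriptions of the libraries. No gene counted above as under 10 CPM in a tissue is among the 4864. The values therefore cannot show whether similarity follows the counts.

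Genes missing from optic lobe and from 1 further tissue were also counted, because they show how far the set extends. Another 74 genes lay under 1 CPM in both optic lobe and statocyst and at 10 CPM or more in the other 5 tissues. The same count was 3 for optic lobe with eye, 2 for optic lobe with mantle skin, and 0 for optic lobe with olfactory organ, rim cells or whole sucker cup. No pair of tissues without optic lobe gave a gene. The 74 genes held 0.335% of the reads of eye, against 1.597% for the 123, and 8.06% of those of mantle skin, against 2.05%. They held 5.42% of the reads of olfactory organ, against 1.87%, and 4.40% of those of rim cells, against 2.72%. In the automated and manual whole sucker libraries they held 5.40% and 5.20%, against 1.96% and 2.01%. Both sets are thus missing from optic lobe. The one also missing from statocyst took less of the eye library and more of the skin, olfactory organ, rim cell and whole sucker libraries.

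In the 6 tissues where they were present, the 123 genes had median levels on either side of those of genes also present in optic lobe. CPM is not divided by transcript length, and the part of length in differences between these sets was not tested. Their median was 42.2 CPM in eye, 52.3 in statocyst, 58.5 in olfactory organ, 59.0 in mantle skin, 64.8 in whole sucker cup and 73.5 in rim cells. The 4864 genes at 10 CPM or more in all 7 tissues had medians of 56.0, 67.3, 62.3, 56.2, 50.5 and 59.4 CPM in the same order. The geometric mean over the 6 tissues had a median of 61.3 CPM for the 123 and 58.7 CPM for the 4864. Upper quartiles were higher for the 123 than for the 4864 in every tissue but eye (120.4 beside 123.0 CPM). They were 213 beside 128 CPM in rim cells and 194 beside 107 CPM in whole sucker cup. Levels of 1000 CPM or more in at least 1 tissue were reached by 14 of the 123 genes (11.4%, beside 3.27% of the 4864). The 46 genes without an optic lobe read had a median geometric mean of 72.6 CPM, and the 30 with 4 or 5 reads 51.1 CPM.

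**Figure D3:**
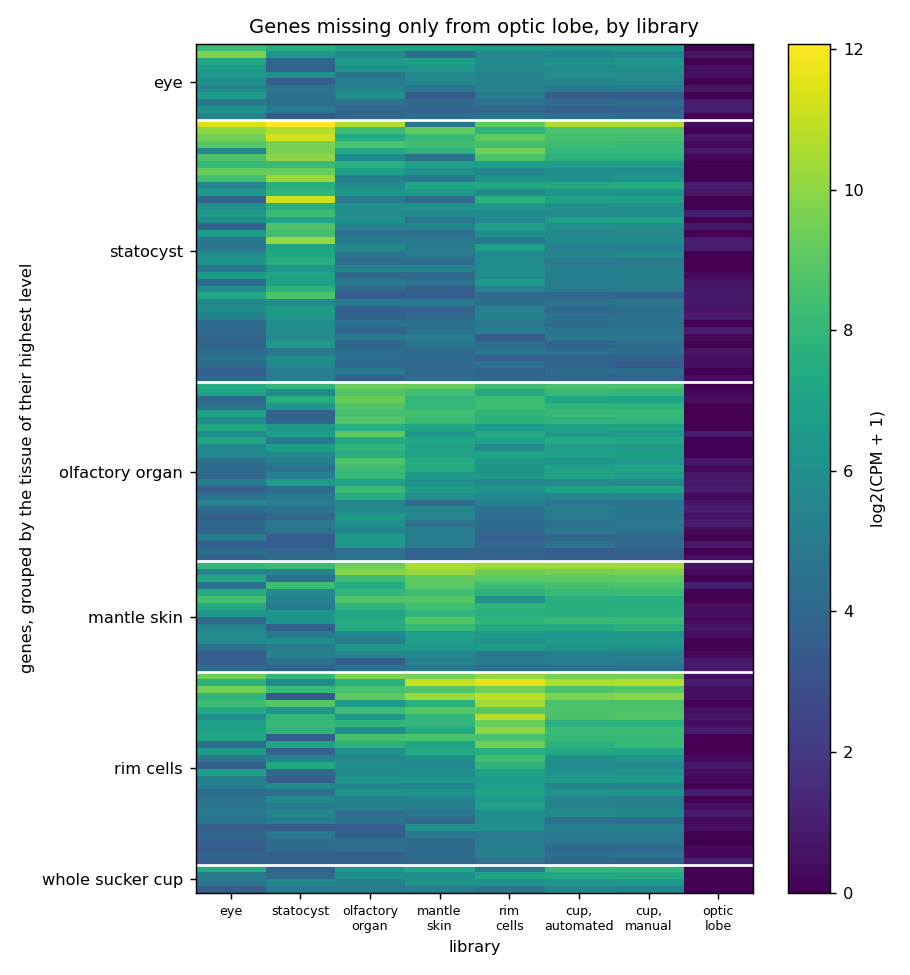
Level in log2(CPM + 1) (colour) of the 123 genes (rows, grouped by the tissue of their highest level and ordered within a group by their geometric mean) in the 8 libraries (columns). The optic lobe column is dark throughout by the choice of genes, with at most 0.930 CPM, and rows are brightest in different tissues, 38 in statocyst and 28 in rim cells.

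Replicate spread could be seen only in whole sucker cup. The automated and manual libraries differed by less than 1.3-fold for 120 of the 123 genes, with a median difference of 1.06-fold and a largest one of 1.38-fold. Both libraries reached 10 CPM for 122 genes. Whether the other tissues have a like spread between libraries is not known.

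For every gene, the lowest of the 6 tissues was compared with optic lobe. The log2 ratio of (CPM + 1) ranged from 2.64 to 8.02 with a median of 3.92. Without a pseudocount, the lowest tissue of the 46 genes with no optic lobe read stood 18.1-fold to 412-fold or more above the floor of 3 optic lobe reads. The ratio of the other 77 ranged from 11.9 to 1663. The lower limit of the exact 95% Clopper-Pearson interval of the ratio was 10 or more for 90 genes, 100 or more for 10 genes, and lowest at 4.96. Both sides of these ratios entered the rule, which sets their lower ends, against 1 CPM or against the floor of 3 reads, so they describe the genes and support nothing further.

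The clearest cases were 8 genes at 100 CPM or more in all 6 tissues (6.50% of the 123, beside 16.4% of the 4864). LOC106876331 had 479.7 CPM in eye, 803 in statocyst, 406 in olfactory organ, 325 in mantle skin, 364 in rim cells, and 322 and 292 in the automated and manual whole sucker libraries, against 1 optic lobe read (0.186 CPM). Its 6 tissues differed by 2.62-fold at most, and the ratio of the lowest, whole sucker cup, to optic lobe was 1663 (298 to 65683). LOC106881481 had 706 CPM in eye, 281 in statocyst, 378 in olfactory organ, 437 in mantle skin, 754 in rim cells, and 405 and 475 in whole sucker cup, against 2 optic lobe reads (0.372 CPM). For each of these genes, the highest of the 6 tissues thus stood under 3-fold above the lowest, with optic lobe under 0.4 CPM. Whole sucker cup, mantle skin, rim cells and olfactory organ correlated with each other over the 4864 genes (r = 0.843 to 0.976). The 6 tissues are therefore not independent of each other.

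LOC106879116 and LOC106880742 belonged to the same 8 genes and had no optic lobe read. LOC106879116 had 1041 CPM in eye, 1633 in statocyst, 306 in olfactory organ, 579 in mantle skin, 229.9 in rim cells, and 405 and 416 in whole sucker cup. Its lowest tissue, rim cells, lay at least 412-fold above the floor of 3 optic lobe reads, with an exact 95% lower limit of 335. LOC106880742 was highest in other tissues, with 661 CPM in olfactory organ, 599 in mantle skin, 386 in each whole sucker library, 304 in rim cells, 242 in statocyst and 169.8 in eye. Its lowest tissue, eye, was at least 304-fold above that floor (lower limit 247). The former gene was highest in statocyst and eye, and the latter in olfactory organ and skin, so genes without an optic lobe read could have unlike orders of the other tissues.

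Another pair of the 8 reached 1000 CPM in rim cells. LOC106870296 had 1200.1 CPM there, 835 in olfactory organ, 756 in mantle skin, 740.01 and 749 in whole sucker cup, 668 in eye and 246 in statocyst, with 2 optic lobe reads. LOC106876092 had 1553 CPM in mantle skin, 1271 and 1272 in whole sucker cup, 1253 in rim cells, 656 in olfactory organ, 308 in statocyst and 242 in eye, with 3 optic lobe reads. The ratio of the lowest tissue to optic lobe was 660.02 (183 to 5452) for LOC106870296 and 434 (148 to 2104) for LOC106876092. Of the last pair, LOC106879196 was highest in statocyst, at 2426 CPM, with 725 CPM in eye, 163 in olfactory organ, 292 in mantle skin, 559.99 in rim cells, 373 and 347 in whole sucker cup, and 3 optic lobe reads. LOC106872305, which was chosen after its values were seen, was highest in rim cells, at 629 CPM, with 111 in eye, 289.9 in statocyst, 232 in olfactory organ, 244 in mantle skin, 200.2 and 206 in whole sucker cup, and 2 optic lobe reads.

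**Figure D4:**
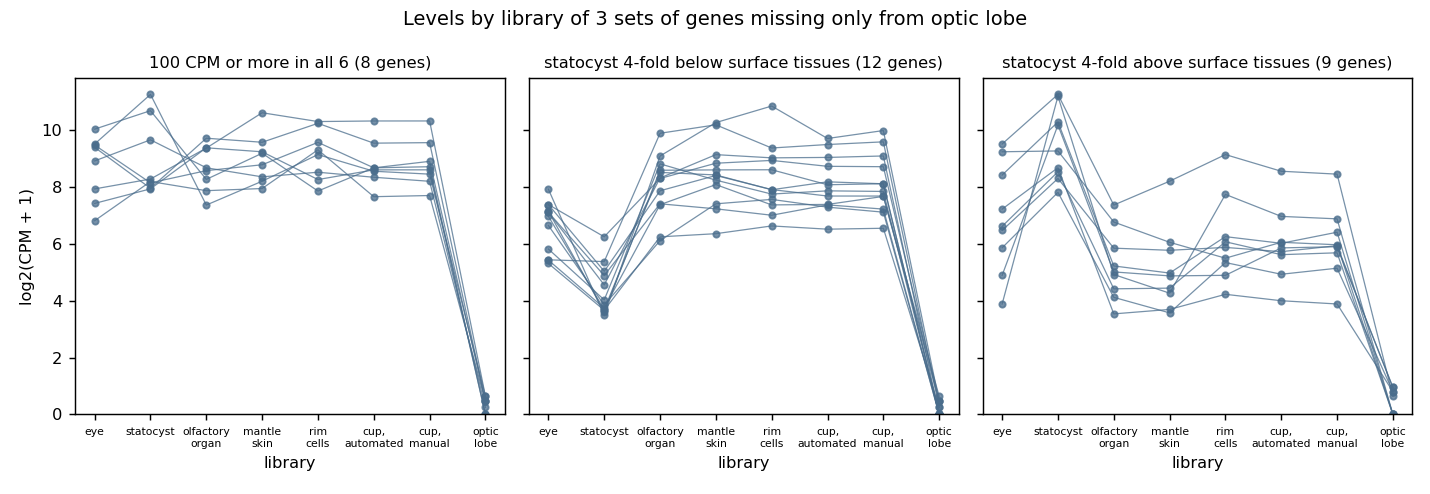
Level in log2(CPM + 1) (vertical axis) in the 8 libraries (horizontal axis) for 8 genes at 100 CPM or more in all 6 tissues (left), 12 genes at least 4-fold lower in statocyst than in the surface tissues (middle) and 9 genes at least 4-fold higher in statocyst than in them (right). Each line is 1 gene, and all lines end under 1 CPM in optic lobe.

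Over the 6 tissues, the 123 genes varied more than genes that were also present in optic lobe. The ratio of the highest to the lowest tissue had a median of 6.15 for the 123 and 2.53 for the 4864 genes at 10 CPM or more in all 7 tissues, under the same floor in the 6 tissues. It exceeded 16-fold for 31 of the 123 (25.2%, beside 2.92% of the 4864) and lay under 2-fold for 5 (4.07%, beside 26.5%). Between those ends, 38 of the 123 varied by under 4-fold (30.9%, beside 76.2%). Genes with intermediate optic lobe levels had intermediate spreads, with a median ratio of 5.36 for the 63 genes at 1 to 2 CPM, 3.68 for the 201 at 2 to 5 CPM and 2.82 for the 457 at 5 to 10 CPM. The 46 genes without an optic lobe read had a median of 5.80 and the 77 with a read 6.41. Levels, which are not divided by transcript length, also differed between these groups. The geometric mean over the 6 tissues had a median of 61.3 CPM for the 123 and 58.7 CPM for the 4864. It was 51.6, 31.2 and 26.8 CPM for the 63, 201 and 457 genes. Under a floor of 10 CPM, lower levels leave less room for wide ratios, and the part of level was not tested.

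Near-even levels were thus rare, and 5 genes had them. LOC106881982 varied least, with 27.3 CPM in eye, 21.1 in statocyst, 21.9 in olfactory organ, 17.4 in mantle skin, 21.6 in rim cells, and 17.5 and 19.9 in whole sucker cup, a 1.57-fold range, and it had 5 optic lobe reads. LOC106880762 had 18.5 CPM in eye, 16.02 in statocyst, 20.4 in olfactory organ, 13.8 in mantle skin, 14.2 in rim cells, and 10.99 and 12.7 in whole sucker cup, with no optic lobe read. It was at least 20.9-fold above the 3-read floor in its lowest tissue, with a lower limit of 16.9. LOC106884127 (1.66-fold), LOC106873486 (1.92-fold) and LOC106872420 (1.99-fold) had 3, 3 and 5 optic lobe reads. All 5 stayed under 50 CPM in each tissue, so their distance from optic lobe rests on fewer reads than that of the 8 genes above.

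Of the 4 genes with the widest ranges, 3 had a single tissue that stood apart. LOC106868339 had 1829 CPM in rim cells, 1222 in mantle skin, 829 and 1006 in whole sucker cup, 541 in olfactory organ and 241 in eye, but 10.2 in statocyst, a 180.1-fold range. LOC106880934 had 2319 CPM in statocyst, 212 in rim cells, 123 and 116 in whole sucker cup, 29.2 in olfactory organ, 18.2 in mantle skin and 13.7 in eye. LOC106873798 had 4308 CPM in statocyst, 2702 in eye, 1597 in olfactory organ, 1532 and 1482 in whole sucker cup and 537 in rim cells, but 26.1 in mantle skin. Statocyst was thus the low tissue of the first gene and the high tissue of the other pair, and mantle skin stood apart in the third. LOC106877427 had no single tissue apart, with 3104 CPM in rim cells, 2108 in mantle skin, 1536 and 1642 in whole sucker cup, 226 in eye, 204 in olfactory organ and 52.3 in statocyst. Their optic lobe reads numbered 2, 0, 2 and 5.

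Statocyst split the set in both directions when set against the 4 surface tissues (olfactory organ, mantle skin, rim cells and whole sucker cup). It was at least 4-fold lower than each of them for 12 genes (9.76%, beside 2.55% of the 4864) and at least 4-fold higher than each for 9 (7.32%, beside 2.51%). The genes singled out for these patterns, other than LOC106868339, LOC106880934, LOC106879196 and LOC106877008, were chosen after their values were seen. LOC106874684 had 387 CPM in rim cells, 385 in mantle skin, 382 in olfactory organ, 268 and 275 in whole sucker cup and 140.3 in eye, but 11.2 in statocyst and no optic lobe read. LOC106873413 had 559 CPM in mantle skin, 517 in rim cells, 522 and 541 in whole sucker cup, 316 in olfactory organ, 136 in eye and 22.5 in statocyst, again with no optic lobe read. In both, the surface tissues lay within a 2-fold range of each other and statocyst lay apart. Of the 12 genes, 6 had no optic lobe read and the other 6 had 1 to 3.

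Genes with the reverse order had statocyst levels between 222.6 and 2426 CPM. LOC106872335 had 1239.6 CPM in statocyst, 339.7 in eye, 75.03 in rim cells, 63.6 and 83.7 in whole sucker cup, 36.2 in olfactory organ and 30.3 in mantle skin, with no optic lobe read. LOC106879128 had 1152 CPM in statocyst and between 28.2 and 58.5 CPM in the other 7 libraries except optic lobe, where it had 5 reads. LOC106872335 was thus next highest in eye, whereas LOC106879128 was high in statocyst alone of the 6 tissues. Across the 123 genes, log2(CPM + 1) in statocyst correlated at a Pearson's r of 0.118 with mantle skin and 0.188 with olfactory organ, beside 0.623 and 0.605 for the 4864. The 4 surface tissues correlated with each other at 0.681 to 0.894 over the 123 and at 0.843 to 0.976 over the 4864. Eye correlated with the surface tissues at 0.45 to 0.601 and at 0.705 to 0.784. The value was thus lower over the 123 in every pair of the 6 tissues, not only in those with statocyst.

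Eye was most often the tissue with the lowest level. It was the lowest of the 6 tissues for 45 genes (36.6%, beside 24.5% of the 4864), statocyst for 32 (26.0%, beside 17.3%) and olfactory organ for 19 (15.45%, beside 12.99%). Rim cells were lowest for 6 (4.88%, beside 14.8%) and whole sucker cup for 7 (5.69%, beside 20.9%). Eye was at least 4-fold below all 4 surface tissues for 10 genes (8.13%, beside 0.925%) and at least 4-fold above them for 5 (4.07%, beside 1.58%). LOC106884409, like the next gene chosen after its values were seen, had 617 CPM in olfactory organ, 314 in rim cells, 247 in mantle skin, 198 in statocyst, 134 and 127 in whole sucker cup, and 16.7 in eye. LOC106876158 had 841 CPM in eye, 78.7 in statocyst, 53.3 in olfactory organ, 47.2 in rim cells, 40.9 and 45.2 in whole sucker cup, and 17.8 in mantle skin. Eye, whose photoreceptor axons enter the optic lobe, was therefore the low tissue for some of the genes and the high one for others.

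The highest level fell most often in statocyst, for 38 genes (30.9%, beside 39.6% of the 4864), then in rim cells for 28 (22.8%, beside 14.8%), olfactory organ for 26 (21.1%, beside 22.3%), mantle skin for 16 (13.0%, beside 10.2%), eye for 11 (8.94%, beside 11.9%) and whole sucker cup for 4 (3.25%, beside 1.11%). Statocyst thus came first in both sets. Rim cells (28 genes) and olfactory organ (26 genes) were too close among the 123 to rank, while olfactory organ came before rim cells for the 4864.

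**Figure D5:**
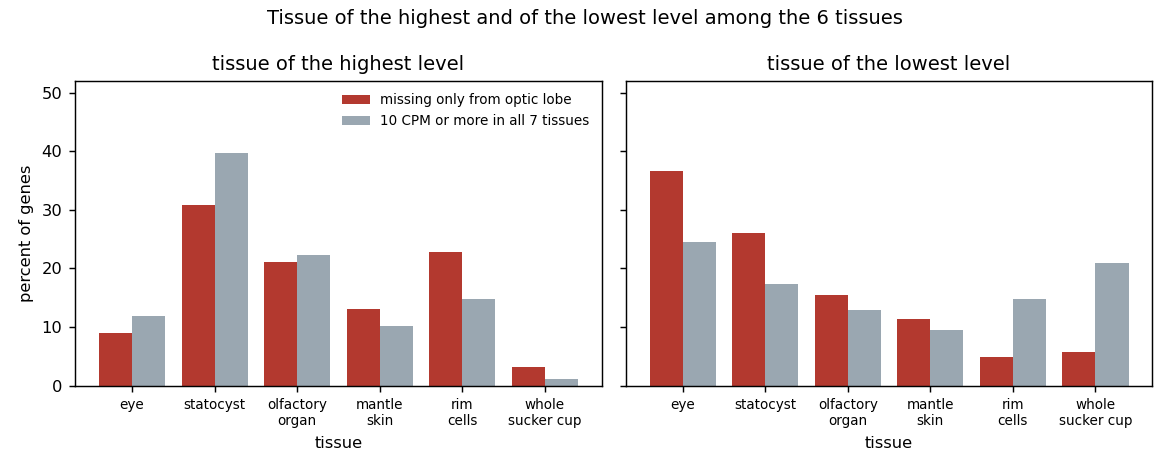
Percent of genes (vertical axis) whose highest level (left) or lowest level (right) among the 6 tissues fell in each tissue (horizontal axis), for the 123 genes missing only from optic lobe (red) and the 4864 genes at 10 CPM or more in all 7 tissues (grey). Eye and statocyst are lowest for 36.6% and 26.0% of the 123 genes, against 24.5% and 17.3% of the 4864.

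Direct comparisons between related tissues gave differences in both directions. Statocyst was at least 4-fold above eye for 15 genes (12.2%, beside 1.67% of the 4864) and at least 4-fold below it for 16 (13.0%, beside 3.23%). The median statocyst to eye ratio was 1.53, beside 1.29 for the 4864. For rim cells to whole sucker cup, the median ratio was 1.11, beside 1.15. These medians give the shift between tissues and not the spread around it. Rim cells were at least 4-fold above both whole sucker libraries for 2 genes (1.63%, beside 0.164%) and below both for 1 (0.813%, beside 0.267%), counts too small to compare with the 4864. LOC106880679 had 338 CPM in rim cells and 64.4 and 69.2 in whole sucker cup, and LOC106879977 had 230.03 CPM against 55.5 and 54.4. LOC106874194 had 27.7 CPM in rim cells against 265 and 244. These 3 genes were named after their values were seen, and only the rim cells had been dissociated, so preparation and tissue cannot be told apart.

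The position of the genes relative to each other was examined through the gene order of the RefSeq assembly ASM119413v2, which may not be the build behind the deposited values. A place in the assembly was found for 111 of the 123, and 12 were not found. Among the 221 places next to these genes in the order of the 13929 measured genes, 6 (2.71%) held another gene of the set, where 0.797% of all placed genes belong to it. They form 3 pairs, each counted from both sides, which are too few to compare with that share. The share was taken over all placed genes. Of the 5708 genes at 10 CPM or more in the 6 other tissues, the set makes up 2.15%. LOC106877015 and LOC106877021 had like levels, with 94.8 and 76.5 CPM in olfactory organ, 44.7 and 29.7 in mantle skin, 20.5 and 16.3 in rim cells, 14.8 and 11.2 in statocyst, and 10.8 and 11.4 in eye. In whole sucker cup they had 30.01 and 23.8 CPM in the automated and 24.6 and 17.4 in the manual library, and 3 and 4 reads in optic lobe. Whether these neighbours have near-identical sequences that would share reads was not tested, as no sequence was used here.

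The other pairs did not follow each other. LOC106877008 was high in statocyst (612 CPM) and eye (599.7 CPM) and low in rim cells (44.0 CPM), while its neighbour LOC106877007 was high in olfactory organ (446 CPM) and low in statocyst (49.0 CPM). LOC106876689 was high in rim cells, at 1713 CPM against 82.9 CPM for its neighbour LOC106876485, which was high in olfactory organ, at 262 CPM against 87.3 CPM. All 4 had 4 or fewer optic lobe reads. These neighbours thus shared low optic lobe levels, by which they were chosen, and not the order of the other tissues.

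Genes next to the thresholds show how sharp the boundaries are. With 5 optic lobe reads (0.930 CPM), 18 genes were just inside, and with 6 reads (1.12 CPM), 11 were just outside. LOC106868970, LOC106870080 and LOC106872420 were among those inside, and their lowest tissues had 11.4, 12.5 and 11.03 CPM. LOC106867092, LOC106872175 and LOC106872588, with 6 reads, had 10.1, 10.4 and 12.8 CPM in theirs, and LOC106880717, also with 6 reads, had 211 CPM. Genes on either side of this line therefore differed by 1 read in a library of 5373482. On the side of the 6 tissues, LOC106869981 (10.1 CPM in statocyst), LOC106868339 (10.2 CPM in statocyst) and LOC106868893 (10.3 CPM in rim cells) were just inside. LOC106880690 and LOC106873116 (9.96 CPM each in statocyst) and LOC106868717 (9.95 CPM in olfactory organ) were just outside. In all, 27 of the 123 genes had a lowest tissue under 12 CPM and 66 under 20 CPM. Genes that met the optic lobe side and fell short in exactly 1 of the 6 tissues numbered 151 for statocyst, 50 for eye, 19 for mantle skin, 9 for olfactory organ, 6 for rim cells and 0 for whole sucker cup.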

How the data were processed

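Bulk messenger RNA of 7 tissues was sequenced as 8 libraries on 2 lanes each. Dissection was manual, extraction used phenol-chloroform, and the Kapa mRNA HyperPlus kit served for library construction, per the labels' protocols. The submitters' processing notes name Trim Galore and kallisto. Their versions and roles, the genome build and the annotation were not given in the sources used. Deposited values are log2(CPM + 1), a unit read from the values, with 1 column per library. They were inverted to CPM. Every value was a whole multiple of 1 read (tolerance 0.01 reads), from which reads and library totals were recovered. Lanes were already merged.

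Tissues were grouped by the labels, with whole sucker cup as the mean of its 2 libraries. Members and lists were chosen with earlier results of these data known. No test between tissues was made. Named genes were those with the highest geometric means, the largest ratios to optic lobe, the smallest and largest ranges, the values closest to the thresholds, the highest level in each tissue, and neighbours. Marker lists and protein patterns were not applied, since no product names or sequences were used here. The code of the rule was run on simulated libraries in which the genes to be found lay away from both thresholds. That run checks the code and does not cover genes near the thresholds. Python 3.11.15, pandas 2.3.3, numpy 2.4.6 and scipy 1.17.1 were used. Alternatives were size factors, other thresholds and pseudocounts, either whole sucker library alone, thinning to 4782744 reads and omission of rim cells.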

Additional observations from a re-analysis of the deposited data

How the results depend on the processing

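The number of genes missing only from optic lobe depended on thresholds and scaling. It was 247 with a floor of 5 CPM, 57 with 20 CPM, 186 with optic lobe under 2 CPM, 81 under 0.5 CPM, and 81 with median-of-ratios size factors, which shift optic lobe by 0.47 and statocyst by -0.39 on the log2 scale. The sets of 81 and 57 were all among the 123, and those of 247 and 186 held all 123. It was 129 without rim cells, 115 after thinning (106 shared), and 122 to 123 with either whole sucker library alone.

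Counts for other tissues moved as well. Statocyst had 33 and 3 genes with floors of 5 and 20 CPM, 42 and 4 with ceilings of 2 and 0.5 CPM, 24 with size factors and 23 without rim cells. Rim cells had 4, 0, 5 and 0 under those floors and ceilings and 0 after thinning. Mantle skin had 1 with a ceiling of 2 CPM. Optic lobe had the largest count under all of these settings, and eye, olfactory organ and whole sucker cup had 0.

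The median log2 ratio of the lowest tissue to optic lobe was 3.05 and 4.93 with the floors, 3.69 and 4.31 with the ceilings, 4.17 with size factors, 3.89 without rim cells, 6.07 and 2.14 with pseudocounts of 0.1 and 5 CPM, and 3.917 to 3.919 with either whole sucker library. The median highest-to-lowest ratio was 7.15 and 5.84 with the floors, 5.81 and 5.70 with the ceilings, 5.82 with size factors, 5.70 without rim cells, and 6.15 to 6.22 with either library. The share of whole sucker cup reads was 2.67% and 1.47% with the floors and 3.504% and 1.35% with the ceilings. It was 1.72% after thinning and 1.96 to 2.01% with either library. With size factors, the rescaled levels of the genes came to 1.55% of the CPM total. Rescaled levels no longer add up to that total, so this value is not a share of reads. Fewer or more genes follow from stricter or looser thresholds by construction, and other causes were not tested. With 5373482 reads, a count of 0 in optic lobe does not show absence. It allows up to 0.558 CPM at the floor of 3 reads, or 0.686 CPM as the exact 95% Poisson limit.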
